A study of Mus musculus with 4 samples.

Results

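Adventitial plasma cells were the barcodes of the aged adventitia library with at least 5 UMIs of Jchain and at least 2 UMIs of Mzb1. They also held no UMI of Cd3d, Cd3e or Cd3g and at most 2 UMIs of C1qa, C1qb and C1qc together. A UMI, or unique molecular identifier, marks 1 captured RNA molecule, and all levels here count UMIs. After a quality filter that kept barcodes with 200 or more genes and no more than 10% of UMIs from mitochondrial genes, 8497 adventitial barcodes remained, and 117 of these met the rule. That is 1.38% (exact Clopper-Pearson 95% interval 1.14 to 1.65%). The whole series held 14831 such barcodes. The cells were chosen by their measured counts of Jchain, Mzb1, the Cd3 genes and the C1q genes, so the levels of these genes are a description only.

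The series profiled single cells of the aorta of C57BL/6 mice with droplet 3′ RNA sequencing in 4 libraries: 1 of aged adventitia, 2 of aged descending intima with 6 mice pooled in each, and 1 of young arch intima with 8 mice pooled. The number of mice behind the adventitial library, their age beyond the word aged, and the sex of the animals are not given, and no treatment or engineered allele is named for any group. The labels repeat for the adventitia the protocol written for the intima, in which the vessel was perfused, bathed in trypsin, scraped in medium with actinomycin D, an inhibitor of transcription, and freed of red cells by lysis. With 1 adventitial library there was no replicate, so no test between conditions was possible, and the cells of that library are not replicates of one another.

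Plasma cells are the antibody-secreting end stage of the B cell lineage. The transcription factors Prdm1, Irf4 and Xbp1 shut down the B cell program and build a large endoplasmic reticulum (ER), in which immunoglobulin chains are made, folded, glycosylated and checked before export. Long-lived plasma cells depend on signals from their surroundings, among them the ligands of the receptor Tnfrsf17 (BCMA) and the chemokine Cxcl12, and the outer layer of the aorta is one tissue where B lineage cells can settle. Jchain encodes the joining chain that links polymeric IgM and IgA, and Mzb1 encodes an ER protein that assists antibody assembly. None of the 432 immunoglobulin genes and segments of the mouse annotation was among the 27998 genes of the files, so antibody class, light chain and V gene use, and the marker Igkc, were not analysed here.

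The adventitial library held 29370967 UMIs in 9347 barcodes, with a median of 2551 UMIs in barcodes that passed the quality filter, against medians of 4909.5 to 7037 in the 3 intimal libraries. Barcodes shared with the intimal libraries numbered 27 to 31 of the adventitial ones, and the plasma cells shared 1, 1 and 0. Other adventitial cells were gated by marker counts, each gate allowing at most 4 Jchain UMIs, into 783 B cells, 1145 T cells, 1280 fibroblasts, 535 macrophages, 224 endothelial cells, 114 neutrophils, 84 monocytes and 780 erythroid barcodes. Fibroblasts, gated by the matrix gene Dcn, were the most numerous of these. Levels are given as CPM, the UMIs of a gene per 1000000 UMIs of a group. Free RNA was present in the droplets: the erythroid barcodes, which should lack Jchain, held it at 405 CPM within that limit of 4, and 60% of them had at least 1 Jchain UMI.

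No barcode of the intimal libraries met the rule. Among 2030 and 2132 barcodes of the aged descending intima and 2172 of the young arch intima the count was 0, which allows shares of up to 0.148%, 0.141% and 0.138% (3 cells of each total, counting error only). Jchain totalled 90012 UMIs in the adventitial library, against 5, 7 and 2 UMIs in the intimal ones. Plasma cells were thus measured in the adventitia alone, and tissue, dissection and library cannot be told apart.

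The plasma cells stood well above the threshold for most of their number. Jchain ran from 5 to 1120 UMIs per cell with a median of 183, and Mzb1 from 2 to 104 with a median of 11. Jchain made up 5.00% of all plasma cell UMIs, against 413 CPM in B cells, which the gate held to at most 4 Jchain UMIs per cell. Just inside the threshold, 11 cells had 5 to 9 Jchain UMIs: their median Xbp1 count was 1, and 10 of them held the B cell gene Ms4a1. Just outside it, 65 barcodes had 3 or 4 Jchain UMIs with enough Mzb1: 23 of them held Xbp1, 50 held Ms4a1 and 2 held Derl3. On the Mzb1 side, the 17 cells with 2 or 3 Mzb1 UMIs had a median Jchain count of 164, and 49 barcodes left out with 0 or 1 Mzb1 UMI had a median of 5.

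The exclusion by Cd3 and C1q removed more barcodes than it kept. Of 303 barcodes with enough Jchain and Mzb1, 95 were left out for a Cd3 UMI, 139 for more than 2 C1q UMIs, 48 of these for both, and 186 in total, or 61.4%. The same exclusion would remove 16.3% of erythroid barcodes, 26.5% of fibroblasts and 31.25% of endothelial cells, and it removed 29.8% of B cells. The erythroid, fibroblast and endothelial gates had already left out barcodes that also met another gate, such as those of T cells or macrophages. The 303 had not been filtered in this way. Their median was 4667 UMIs, against 2055.5 in erythroid barcodes, 3608 in fibroblasts, 4162.5 in endothelial cells and 2511 in B cells before the exclusion. The plasma cells had a median of 3970 UMIs, against 5107 in the 186 left-out barcodes, and they carried 30.1% of the Jchain UMIs of the library, against 52.9% in the left-out barcodes. Genes of the plasma cell state were at similar levels in both: Xbp1 stood at 2055 CPM in the plasma cells, against 1904 in the left-out barcodes, and Derl3 at 450 CPM in the plasma cells, against 474 in the left-out barcodes. Prg2, at 611 CPM in the plasma cells against 242 in the left-out barcodes, and Slpi, at 3007 in the plasma cells against 1570 in the left-out barcodes, were higher in the plasma cells. Both levels rested in part on few cells: a single plasma cell held 117 of the 331 Prg2 UMIs, and a single one 420 of the 1630 Slpi UMIs. Whether these barcodes are doublets, or plasma cells with free T cell and macrophage RNA, was not tested.

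The label was checked against further markers of plasma cells that the rule did not use. Xbp1, the transcription factor of the secretory program, ran from 0 to 45 UMIs per plasma cell with a median of 7. It was present in 111 of 117 plasma cells (94.9%), against 21.6% of B cells and 10.1% of erythroid barcodes, at median depths of 3970, 2252 and 2055.5 UMIs. With every cell thinned to 1000 UMIs the expected shares were 78.0% of plasma cells, 9.57% of B cells and 4.65% of erythroid barcodes. Derl3, an ER channel protein for the removal of misfolded proteins, ran from 0 to 15 UMIs with a median of 1. It was found in 81 plasma cells, in 1.66% of B cells and in 2.05% of erythroid barcodes. Sdc1, the surface proteoglycan CD138 used to sort plasma cells, ran from 0 to 8 UMIs, and 57 plasma cells (48.7%) held it, against 1.28% of B cells and 0.513% of erythroid barcodes. Tnfrsf17 was found in 42 plasma cells, Irf4 in 37 and Prdm1 in 36. Each of these markers stood higher per UMI in the plasma cells than in the erythroid barcodes, and Igkc was not analysed here. This held less clearly for the 23 cells with 5 to 49 Jchain UMIs: Xbp1 was found in 18 of them and Derl3 in 13, but Irf4 in 4, Sdc1 in 3, Prdm1 in 2 and Tnfrsf17 in 1, while the B cell gene Ms4a1 was found in 18. The label plasma cell is therefore less well borne out for those cells.

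**Figure D1:**
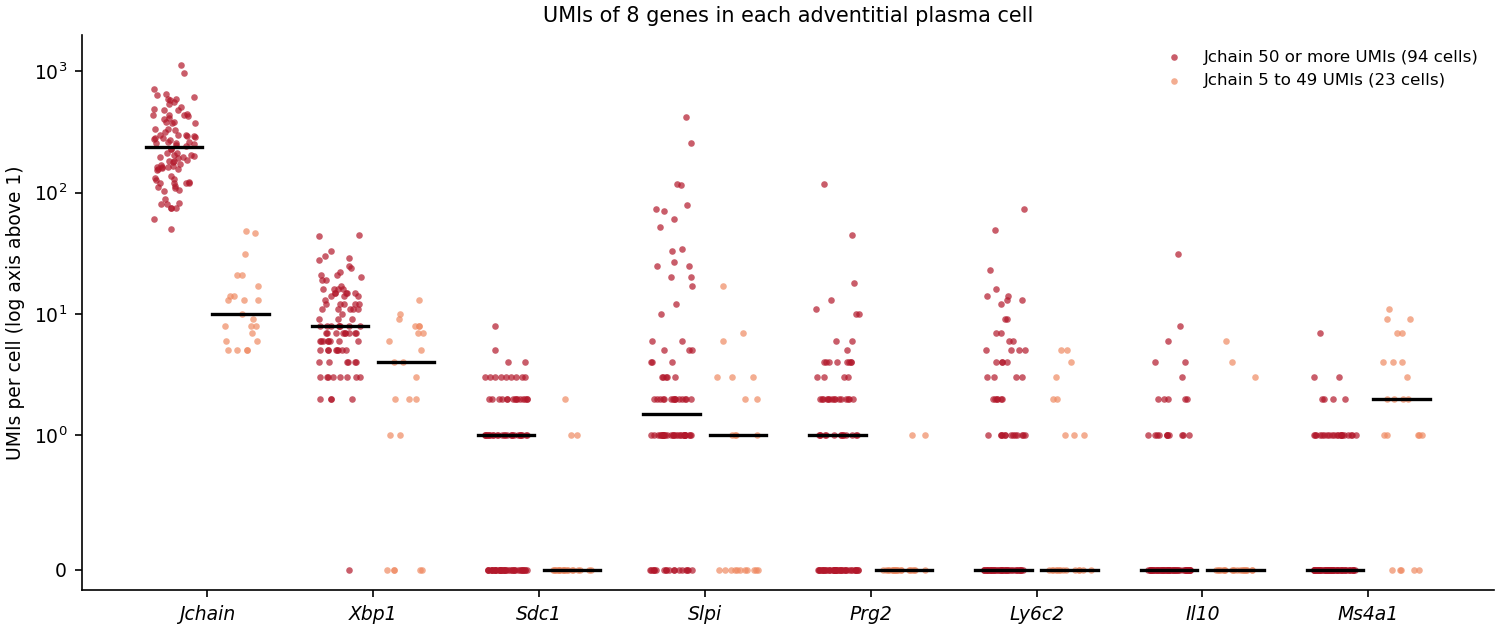
UMIs of 8 genes in each plasma cell (vertical axis, logarithmic above 1), for 94 cells with 50 or more Jchain UMIs and 23 cells with 5 to 49; each point is 1 cell and the bars are medians. Xbp1 is spread over nearly all cells, while Slpi, Prg2, Ly6c2 and Il10 reach high counts in a few cells only, and Ms4a1 is more frequent in the cells with little Jchain.

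Gene levels of the 117 plasma cells were compared with those of the 783 B cells of the same library, gated by at least 2 UMIs of Cd79a and 1 of Ms4a1, fewer than 5 of Jchain and the same limits on Cd3 and C1q, since B cells are the stage from which plasma cells arise. UMIs were summed over the cells of each group and given as CPM, and a gene was called higher or lower at 2-fold or more, a rule of size and not of significance. Among 7555 genes with at least 20 UMIs over both groups, 831 (11.0%) were called higher and 935 (12.4%) lower in plasma cells. As means per barcode without scaling to CPM the split was 2996 higher and 269 lower. Among the 1578 genes with at least 200 UMIs, 146 (9.25%) were higher and 144 (9.13%) lower. Plasma cells held more RNA per barcode, with 1880 to 16673 UMIs and a median of 3970, against 1360 to 10119 and a median of 2252 in B cells. Without scaling all log2 folds shift upward by 0.80, the log2 ratio of the mean UMIs per barcode. The gene lists described from here on group genes by their known roles and were chosen with earlier results of these data known. Each is given by its counts and its median beside the median of all genes, which was -0.00 on the log2 scale.

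The secretory machinery was higher in plasma cells at every step from entry into the ER to transport to the Golgi. Of 119 genes counted in 5 lists, 96 were at least 2-fold higher in plasma cells, 0 were lower, and the median log2 fold was 1.76. Together these genes took 4.86% of the UMIs of plasma cells. In B cells they took 1.16%, in T cells 1.15%, in fibroblasts, which secrete matrix, 2.04%, and in erythroid barcodes 0.426%. Cell by cell the share ran from 0.693 to 12.9% with a median of 5.10% in plasma cells, against 0.349 to 4.82% with a median of 1.12% in B cells. The ranges overlapped, although most plasma cells lay above most B cells.

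Chaperones and folding enzymes showed a median log2 fold of 2.19, with 24 of 29 genes at least 2-fold higher and 0 lower. Hsp90b1, the ER form of HSP90, stood at 3075 CPM in plasma cells (exact Poisson 95% interval 2929 to 3226), against 297 (274 to 321) in B cells. Hspa5, the Hsp70 chaperone BiP that holds unfolded antibody heavy chains, stood at 1793 (1682 to 1909) in plasma cells, against 393 (367 to 421) in B cells. These 2 chaperones bind nascent chains, while protein disulfide isomerases form the bonds that join them. Txndc5, an isomerase, stood at 1465 CPM in plasma cells, against 74.1 in B cells, a log2 fold of 4.30. Pdia4 had a log2 fold of 3.47, Pdia6 of 2.69 and Pdia3 of 1.75. Creld2, a stress-induced ER protein, had the largest log2 fold of the list, 4.55, with 1387 (1290 to 1490) CPM in plasma cells and 59.2 (49.2 to 70.6) in B cells. Manf, a secreted stress-induced ER protein, had 1987 CPM in plasma cells and 244 in B cells. Prdx4, the ER peroxiredoxin, and Fkbp11, a prolyl isomerase, had log2 folds of 3.36 and 3.56. The 5 genes of this list within 2-fold were Canx, Dnajc1, Ero1lb, Erp29 and Cnpy3, between -0.38 and 0.99 on the log2 scale.

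Genes for entry into the ER had a median log2 fold of 1.86, with 20 of 23 at least 2-fold higher. Ssr4, a subunit of the translocon-associated complex, had 1990 CPM in plasma cells and 274 in B cells. The signal peptidase genes Spcs1, Spcs2, Spcs3 and Sec11c lay close together, with log2 folds of 2.66 to 2.78, whereas Sec11a, the other catalytic subunit, had 0.68. Srprb, a subunit of the receptor for the signal recognition particle, had 3.40. Genes for N-glycosylation had a median of 1.59, with 15 of 22 higher. Among them Ddost, of the oligosaccharyltransferase, had a log2 fold of 2.79, and Lman1, a cargo receptor for glycoproteins, had 3.20. Genes of ER to Golgi transport had a median of 1.30, with 22 of 28 higher. Sec24d, a coat protein of the export vesicle, had 2.99 and Tmed10, a cargo receptor, 2.49, while the subunits of the coat for the return route ran from 0.68 for Copb1 to 1.80 for Cope.

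Genes of ER-associated degradation and of stress sensing had a median log2 fold of 1.81, with 15 of 17 higher and 0 lower. Derl3 had the largest, 5.62 (interval 4.95 to 6.38), with 450 CPM (395 to 510) in plasma cells and 9.14 (5.51 to 14.3) in B cells. Edem1 and Edem2, lectins that pick misfolded glycoproteins, had 4.08 and 3.63. Herpud1, a stress-induced partner of the degradation ligase, had 845 CPM in plasma cells and 102 in B cells. The 3 sensors of the unfolded protein response gave few UMIs: Atf6 had a log2 fold of 1.51, Eif2ak3 (PERK) had 0.11, and Ern1 (IRE1), the enzyme that splices Xbp1 RNA, had 7 UMIs in plasma cells and 2 in B cells, too few to be counted. Of further stress response genes in the list, Atf4 had a log2 fold of 1.05, Ddit3 1.10 and Ppp1r15a -0.44. Chac1, a glutathione-degrading enzyme, had 25 UMIs in plasma cells and 0 in B cells, at least 31.9-fold higher against 3 counts over the B cells.

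Promoters are shown for genes of these lists because they hold the ER stress element (ERSE), to which Atf6 and Xbp1 are known to bind in other cells. The element was searched as CCAAT, any 9 bases and CCACG, on both strands of RefSeq promoter windows of build GRCm38.p6, each with 250 bases before and 50 after the annotated start. It occurred in 39 of 32851 windows (0.119%). Among chaperone genes, 24 of 30 had a window and 7 of these held the element (29.2%), and among all 5 secretory lists it was 9 of 102 (8.82%). No window of the 18 B cell identity genes or of the 10 MHC class II genes with one held it. With the element in 0.119% of all windows, lists this small would be expected to hold none, so these 2 lists give no contrast. The share over all windows counts windows, while those of the lists count genes. The related ERSE-II, searched as ATTGG, any base and CCACG, occurred in 12 windows (0.0365%), 3 of them among the 102. The ERSE matches and the ERSE-II match of Herpud1 follow as 29 bases each; those of Dnajb11 and Krtcap2, which lie after the start, are not shown. Each is read 5′ to 3′ on the strand of the gene, with the element in capitals; those that begin with CGTGG lie on the opposite strand.
Creld2, chr15:88819515-88819543, + strand, log2 fold 4.55: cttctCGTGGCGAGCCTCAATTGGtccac
Derl3, chr10:75893237-75893265, + strand, log2 fold 5.62: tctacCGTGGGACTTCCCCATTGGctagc
Hsp90b1, chr10:86705528-86705556, - strand, log2 fold 3.37: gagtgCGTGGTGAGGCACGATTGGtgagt
Hsp90b1, second match, chr10:86705633-86705661, - strand: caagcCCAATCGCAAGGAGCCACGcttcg
Dnajc3, chr14:118937822-118937850, + strand, log2 fold 3.20: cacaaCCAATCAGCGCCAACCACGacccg
Pdia6, chr12:17266486-17266514, + strand, log2 fold 2.69: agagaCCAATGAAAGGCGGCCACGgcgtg
Hspa5, chr2:34772020-34772048, + strand, log2 fold 2.19: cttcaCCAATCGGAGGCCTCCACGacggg
Syvn1, chr19:6046527-6046555, + strand, log2 fold 1.81: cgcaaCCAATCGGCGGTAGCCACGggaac
Calr, chr8:84847070-84847098, - strand, log2 fold 1.69: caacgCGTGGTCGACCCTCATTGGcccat
Canx, chr11:50325795-50325823, - strand, log2 fold 0.97: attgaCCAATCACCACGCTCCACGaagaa
Herpud1, ERSE-II, chr8:94386368-94386396, + strand, log2 fold 3.05: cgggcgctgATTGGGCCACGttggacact

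Of these genes, Creld2 and Derl3 had the largest folds, and the 200 bases before their starts are given in full, at chr15:88819446-88819645 and chr10:75893198-75893397, both on the + strand. The element begins at position -126 in Creld2 and -156 in Derl3. A match of letters is a description and not a site of binding.
Creld2 promoter: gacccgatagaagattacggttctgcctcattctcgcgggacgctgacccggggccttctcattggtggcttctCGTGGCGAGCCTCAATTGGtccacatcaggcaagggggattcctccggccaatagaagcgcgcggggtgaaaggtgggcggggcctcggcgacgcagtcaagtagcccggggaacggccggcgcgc
Derl3 promoter: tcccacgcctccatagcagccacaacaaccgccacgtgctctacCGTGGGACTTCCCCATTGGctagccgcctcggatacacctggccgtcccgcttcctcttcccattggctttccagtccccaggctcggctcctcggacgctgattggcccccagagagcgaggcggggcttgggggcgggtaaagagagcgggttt

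**Figure D2:**
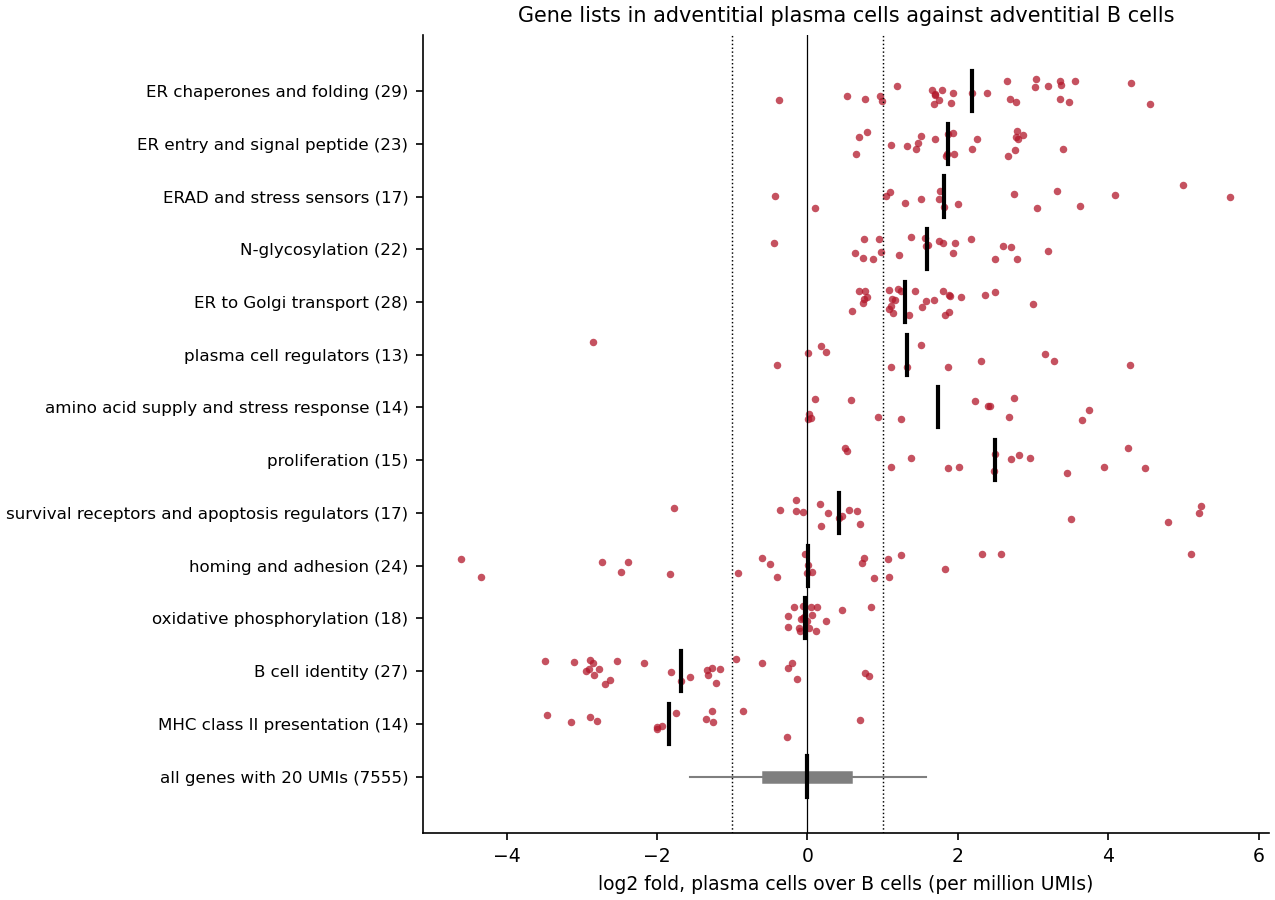
Log2 fold of plasma cells over B cells (horizontal axis, from CPM) for every gene with at least 20 UMIs in 13 gene lists, with the number of genes in brackets; points are genes, black bars list medians, dotted lines 2-fold, and the lowest row gives the median, quartiles and 5th to 95th percentiles of all 7555 genes. The 5 secretory lists lie to the right of 0 with medians of 1.30 to 2.19, B cell identity and MHC class II lie to the left, and oxidative phosphorylation lies at -0.03.

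Among regulators of the plasma cell state, 8 of 13 genes were at least 2-fold higher, 1 was lower, and the median log2 fold was 1.33. Xbp1 (chr11:5520659-5525893, mm10) had a log2 fold of 4.29 (4.07 to 4.50), at 2055 CPM (1936 to 2179) in plasma cells and 105 (91.9 to 120) in B cells. Prdm1, the repressor Blimp-1, had 79.3 CPM in plasma cells and 21.7 in B cells, and Irf4 had 95.9 and 44.3. Both were thinly counted, with 43 and 52 UMIs in plasma cells. Ell2, the elongation factor that favours the secreted form of antibody heavy chains, had 184 CPM in plasma cells and 20.7 in B cells, and its partner Eaf2, which is not in this list, had 387 and 19.7. Creb3l2, a further ER-bound transcription factor, had a log2 fold of 3.28, Tent5c, a poly(A) polymerase that stabilises antibody transcripts, had 2.30, and Pou2af1, the octamer coactivator, had 1.33. Zbtb32, a repressor described in memory-derived plasma cells, was the 1 lower gene, with 4 UMIs in plasma cells and 111 in B cells (-2.86). Zbtb20, a factor for plasma cell survival, was within 2-fold, at 236 CPM in plasma cells and 235 in B cells.

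Genes of the B cell program were lower in plasma cells. Of 27 B cell identity genes, 20 were at least 2-fold lower, 0 were higher, and the median log2 fold was -1.68. Pax5, the factor that keeps B cell identity, had 7 UMIs in plasma cells, 12.9 CPM (5.19 to 26.6), against 79.4 (67.8 to 92.5) in B cells. Ebf1, a factor of early B cells, had 92.2 (68.5 to 122) in plasma cells and 684 (649 to 721) in B cells. Receptors and signalling genes of B cells followed: Cd22 had a log2 fold of -2.90 and Fcmr, the IgM Fc receptor, -2.69. The coupling chain Cd79b was less reduced, at -0.95, and Ms4a1 and Cd79a, which defined the B cells, had -2.17 and -1.33. The gate set the levels of Ms4a1 and Cd79a in B cells, so their part in the list's count and per-cell share is a description only. Genes within 2-fold included Blnk, an adaptor of the B cell receptor, with 214 CPM in plasma cells and 126 in B cells, and Cd24a, with 576 and 328. Cell by cell, the list took 0.0524 to 1.13% of UMIs with a median of 0.292% in plasma cells, against a median of 0.873% in B cells.

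Antigen presentation by MHC class II was lower too. Of 14 genes, 11 were at least 2-fold lower in plasma cells and 0 higher, with a median log2 fold of -1.84. H2-Aa, a chain of the class II molecule, had 1110 CPM (1024 to 1203) in plasma cells and 4225 (4137 to 4314) in B cells. H2-Oa and H2-DMb2, which act in the control of peptide loading, had log2 folds of -3.46 and -2.79. Ciita, the master activator of the class II genes, had 2 UMIs in plasma cells and 59 in B cells. The costimulatory genes Cd40, Cd80 and Cd86 had 3, 1 and 18 UMIs in plasma cells, against 85, 34 and 276 in B cells. These counts and those of Ciita are out of 542127 UMIs of plasma cells and 2077849 of B cells. As CPM, Cd80 stood at 1.84 in plasma cells and 16.4 in B cells, and Cd86 at 33.2 and 133. Cd74, the invariant chain, was less reduced: it ran from 2 to 215 UMIs per plasma cell with a median of 34, against 10 to 202 with a median of 46 in B cells. These counts per cell are unscaled, at median depths of 3970 UMIs in plasma cells and 2252 in B cells. The cysteine protease Ctss, which trims the invariant chain, was at 0.70.

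The 15 largest positive folds among genes at 100 CPM or more in plasma cells, leaving out Jchain and Mzb1 because the rule used them, joined secretory genes with genes outside these lists. Besides Derl3, Creld2, Txndc5, Xbp1, Edem1 and Eaf2, they were Prg2, Sdc1, Tnfrsf17, Ly6c2, Chst1, Cd28, Serpina3f, Oosp1 and Pclaf, with log2 folds of 3.85 to 7.31. Chst1, a carbohydrate sulfotransferase, had 173 CPM in plasma cells and 5.29 in B cells. Oosp1, named as an oocyte-secreted protein, had 177 in plasma cells and 11.6 in B cells, and 55 plasma cells held it. Serpina3f, a protease inhibitor, had 258 and 14.4, and reads of its multigene family may be split between near-identical copies. Among genes at 100 CPM or more in B cells, the 15 largest negative folds ran from -4.34 to -2.64. They were Ccr7, Lamb3, H2-Oa, Gm31243, Satb1, Gm26740, Ly86, Ebf1, Plaur, Cd72, Fam43a, H2-DMb2, Bank1, Fcmr and Prkcb. Ccr7, the receptor that draws B cells to lymphoid tissue, had 12.9 CPM (5.19 to 26.6) in plasma cells and 262 (241 to 285) in B cells. Gm31243 is annotated antisense to Bank1, a scaffold of B cell receptor signalling, and overlaps part of it. Whether counting used the strand is not stated, so whether reads of the shared stretch were told apart is not known here.

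**Figure D3:**
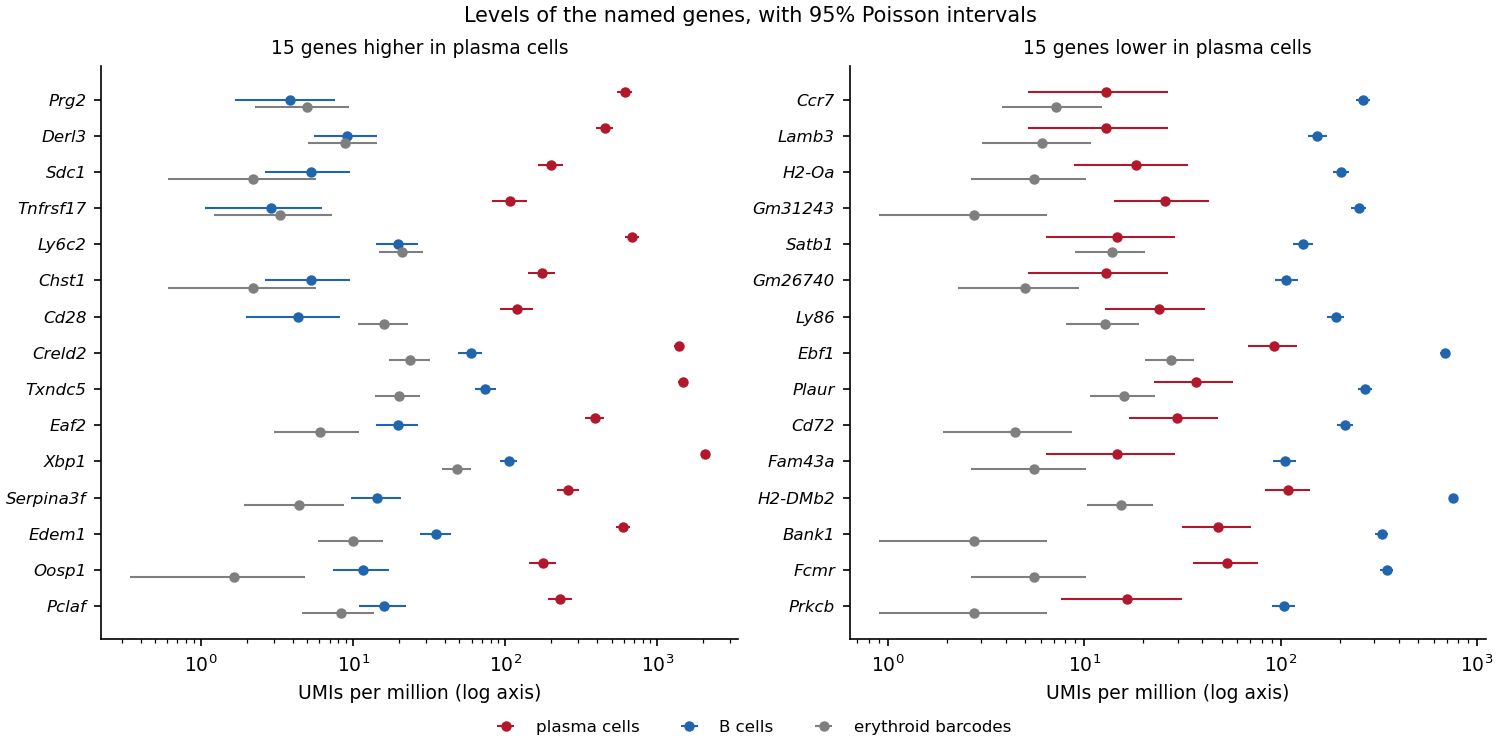
CPM (horizontal, logarithmic axis) of 15 genes at the top and 15 at the bottom of the ranking by fold, in plasma cells, B cells and erythroid barcodes; bars are exact Poisson 95% intervals that cover counting error only. Erythroid barcodes, which carry free RNA, stay at or below 48.1 CPM for every gene shown, and the intervals of plasma cells and B cells do not overlap.

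Survival receptors and regulators of apoptosis were mostly within 2-fold. Of 17 genes, 4 were at least 2-fold higher, 1 was lower, and the median log2 fold was 0.42. The 4 higher were Sdc1, Tnfrsf17, Cd28 and Slamf7. Tnfrsf17, the receptor BCMA for the ligands APRIL and BAFF, had 107 CPM (81.2 to 138) in plasma cells and 2.89 (1.06 to 6.29) in B cells. The other receptors of these ligands were within 2-fold: Tnfrsf13b (TACI) had 120 and 81.8 CPM, and Tnfrsf13c (the BAFF receptor) 116 and 104. Cd28, better known as a costimulator on T cells, had 120 (92.5 to 153) in plasma cells and 4.33 (1.98 to 8.22) in B cells. It was found in 39 plasma cells that by the rule held no Cd3 UMI, and T cells had it at 352 CPM. Slamf7, a surface receptor of plasma cells and natural killer cells, had 153 in plasma cells and 13.5 in B cells. The anti-apoptotic gene Mcl1 had 262 and 216 CPM, and Bcl2 had 81.2 and 105, both within 2-fold. Cd38, a marker of human plasma cells, was lower in these mouse cells, at 36.9 CPM against 127 in B cells.

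Homing and adhesion genes went both ways: of 24, 7 were at least 2-fold higher and 6 lower in plasma cells, with a median log2 fold of 0.00. Among the lower genes were receptors that guide B cells through lymphoid organs and blood: Ccr6 at -4.60, Ccr7 at -4.34, S1pr1 at -2.48, Cxcr5 at -2.38 and Klf2, a factor for circulation, at -1.83. The higher genes were Ly6c2 at 5.10, Epcam at 2.57, Cd93 at 2.33, Cxcr3 at 1.82, Selplg, an adhesion ligand of leukocytes, at 1.25, and the integrin chains Itgal and Itgb2 at 1.08 and 1.07. Cd93, known for retention of plasma cells in bone marrow, rested on 17 UMIs in 7 cells, 10 of them in 1 cell, and Cxcr3 on 12 UMIs in 8 cells. Of the Cxcr3 UMIs, 8 lay in 5 of the 23 cells with 5 to 49 Jchain UMIs. The 94 cells with 50 or more held 4 of them, in 3 cells. Cxcr4, the receptor for Cxcl12, was not higher, at 62.7 CPM (43.4 to 87.6) in plasma cells and 83.3 (71.3 to 96.6) in B cells. Integrin chains Itga4, Itgb1 and Itgb7 were within 0.06 of 0 on the log2 scale. The mucosal homing receptors Ccr9 and Ccr10 had 3 UMIs each in the plasma cells, too few to be compared.

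Genes of amino acid supply were higher in plasma cells. Of 14, 8 were at least 2-fold higher, 0 were lower, and the median log2 fold was 1.73, or 0.89 with cells thinned to 1000 UMIs. Slc3a2, the heavy chain of amino acid transporters, had 935 CPM (856 to 1020) in plasma cells and 178 (160 to 197) in B cells, and its partner Slc7a5 had a log2 fold of 3.65. Asns, the asparagine synthetase, had 3.75, and the serine pathway enzymes Phgdh, Psat1 and Shmt2 had 2.23, 2.75 and 2.43. The charging enzymes Aars and Eprs were at 0.01 and 0.05. Among oxidative phosphorylation genes, 0 of 18 passed 2-fold in either direction, and their median was -0.03.

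Genes of cell division were higher in plasma cells as a sum, but unevenly over the cells. Of 15 proliferation genes, 13 were at least 2-fold higher, 0 were lower, and the median log2 fold was 2.49. Rrm2, a subunit of ribonucleotide reductase, had a log2 fold of 4.49, Mki67, the marker Ki-67, 3.94 and Top2a, a topoisomerase of dividing cells, 2.82. With each cell thinned to 1000 UMIs the median of the list was 0.14, and with genes of at least 200 UMIs it was 0.53. The limit on UMIs was applied again to the thinned counts. Both medians thus cover only the genes of the list that still passed, whose numbers are not reported here. Cell by cell the list took 0 to 0.675% of UMIs with a median of 0.0329% in plasma cells. In B cells it took 0 to 0.682% with a median of 0.0304%, and in T cells the median was 0.0494%. The median plasma cell thus lay close to the median B cell. At least 2 UMIs of the list were present in 48 plasma cells, 41.0% (32.0 to 50.5%), against 25.8% of B cells and 7.69% of erythroid barcodes. At 1000 UMIs per cell the expected shares were 14.9% of plasma cells, 7.12% of B cells, 12.7% of T cells and 1.57% of erythroid barcodes. Within the plasma cells they were 9.30% of the 94 cells with 50 or more Jchain UMIs and 37.9% of the 23 cells with 5 to 49. At least 10 UMIs were found in 13 plasma cells, 8 of them among the 23 cells with little Jchain, and in 4 of 783 B cells. Those 8 cells were deep, with 6487 to 13940 UMIs, and Jchain made up 0.0503 to 0.553% of their UMIs. In erythroid barcodes, held to at most 4 Jchain UMIs, the Jchain share had a median of 0.0383% and ran up to 0.277%. Whether free Jchain RNA carried such deep barcodes past the rule was not tested.

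The plasma cells formed a range of Jchain levels, divided here at 50 UMIs into 94 cells with 50 to 1120 and 23 cells with 5 to 48. The split marks a range and not a type, since cells lay on either side of it at 48 and 50 UMIs. Cells with 50 or more Jchain UMIs were shallower, with a median of 3823.5 UMIs, against 5071 in those with 5 to 49. Mzb1 had similar medians on both sides: its median was 11 UMIs with 50 or more Jchain UMIs and 13 with 5 to 49. Xbp1 had 0 to 45 UMIs with a median of 8 at 50 or more Jchain UMIs, against 0 to 13 with a median of 4 at 5 to 49. Sdc1 was found in 54 of 94 cells with 50 or more Jchain UMIs and in 3 of 23 with 5 to 49, and Ms4a1 in 28 of 94 and 18 of 23.

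Over 3151 genes, 388 (12.3%) were at least 2-fold higher with 50 or more Jchain UMIs than with 5 to 49, and 323 (10.3%) were lower. Of the 375 genes with 200 UMIs or more, 37 (9.87%) were higher and 20 (5.33%) lower. Proliferation genes had a median log2 fold of -2.48, with 12 of 14 at least 2-fold lower in cells with 50 or more Jchain UMIs. Hmgb2, a chromatin protein of dividing cells, had 163 CPM with 50 or more Jchain UMIs and 1397 with 5 to 49, and Pclaf, a partner of the replication clamp, had 57.6 and 706. B cell identity genes had a median of -1.14, with 11 of 17 lower, and MHC class II genes -0.99, with 4 of 9 lower and 1 higher. Degradation and stress genes had a median of 0.96, chaperones 0.85 and ER entry genes 0.51, with 7 of 15, 9 of 27 and 4 of 23 higher and 0 lower. The share of secretory genes was 1.89 to 12.9% with a median of 5.26% at 50 or more Jchain UMIs, against 0.693 to 10.4% with a median of 2.16% at 5 to 49. Some cells with little Jchain thus matched the others in secretory genes, while others lay at the level of B cells. Among genes at 100 CPM or more in the higher group, Jchain left out, the largest folds towards high Jchain were those of Prg2 at 5.88, Cd28 at 4.52, Tnfrsf17 at 4.35, Pik3cg, a lipid kinase subunit, at 4.19 and Tg, the thyroglobulin gene, at 4.04, and all 5 had 1 or 2 UMIs in the 23 cells. Oxidative phosphorylation genes had 0 of 18 past 2-fold in this comparison as well.

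**Figure D4:**
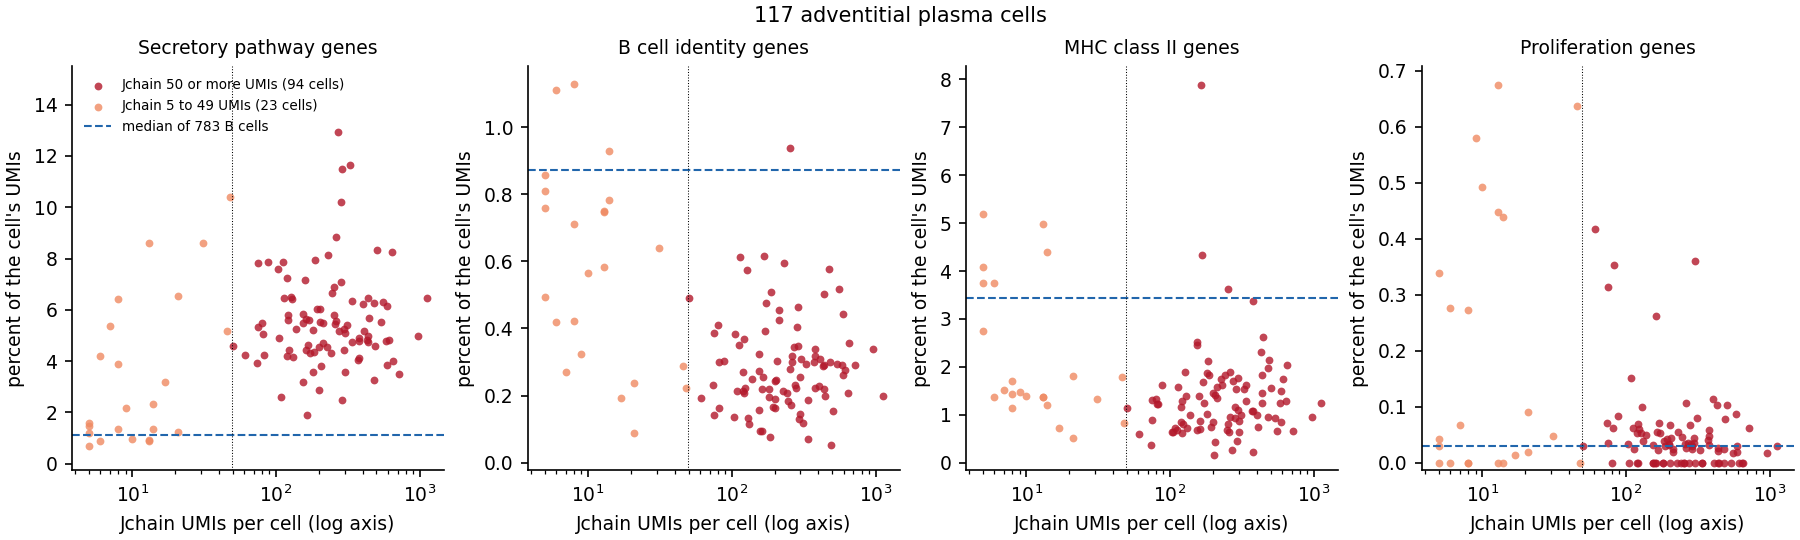
Share of each plasma cell's UMIs (vertical axis, percent) taken by secretory, B cell identity, MHC class II and proliferation genes against its Jchain UMIs (horizontal, logarithmic axis); points are cells, the dotted line marks 50 Jchain UMIs, and the dashed line is the median of 783 B cells. Cells with 50 or more Jchain UMIs all lie above the B cell median of 1.12% for secretory genes and all but 1 below that of 0.873% for B cell identity, while cells with 5 to 49 are spread on both sides. The B cells were gated by Cd79a and Ms4a1, so their B cell identity share is in part set by the gate.

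A few genes were carried by a minority of plasma cells at high counts. Prg2 (chr2:84980461-84983632, mm10), the major basic protein of eosinophil granules, ran from 0 to 117 UMIs with a median of 0 over all 117 cells. In the 94 cells with 50 or more Jchain UMIs it had 329 UMIs in 51 cells, and 73.3% of them lay in 10 cells. Its level was 611 CPM in plasma cells (547 to 680), against 3.85 (1.66 to 7.59) in B cells and at most 5.03 in any other gated class. Of other eosinophil genes, chosen after the Prg2 value was seen, Epx, Ear1, Ear6, Siglecf and Ccr3 had 0 UMIs in plasma cells and Ear2 had 4. All 8497 barcodes together held 1 UMI of Epx, 21 of Ear1, 0 of Ear6, 6 of Siglecf, 9 of Ccr3 and 957 of Ear2, so the 5 counts of 0 carry little information.

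Slpi, a secreted inhibitor of leukocyte proteases, ran from 0 to 420 UMIs with a median of 1, and 80.9% of its UMIs in the 94 cells lay in 10 cells. It stood at 3007 CPM in plasma cells, against 247 in B cells, 9151 in neutrophils, 4140 in macrophages and 230 in erythroid barcodes, so its background was high. Ly6c2, a surface protein best known from inflammatory monocytes, ran from 0 to 73 UMIs and was found in 55 plasma cells, at 679 CPM. It stood at 19.7 in B cells, 340 in T cells and 1888 in monocytes, which were gated by Ly6c2, and of the other genes of the monocyte list Ccr2 and Chil3 stood at 7.38 and 14.8 in plasma cells. Plac8, the remaining one, stood at 341 CPM in plasma cells, where 60 cells held it, 940 in B cells and 71.3 in erythroid barcodes. Il10, the regulatory cytokine, had 90 UMIs in 25 plasma cells, 166 CPM (133 to 204), against 18.8 (13.3 to 25.7) in B cells and 96.2 in macrophages, and 83.1% of its UMIs in the 94 cells lay in 10 cells. For Mzb1, 10 cells held 35.5% of the UMIs. The rule required at least 2 Mzb1 UMIs in every cell, and Mzb1 had 1536 UMIs in the 94 cells, against 77 of Il10. Its spread is therefore a description and not a measure for the other genes. At 5 UMIs or more, Prg2 marked 10 of the 94 cells and Slpi 24, and 3 cells had both, which is 30% of the Prg2 cells and 12.5% of the Slpi cells. Prg2 and Ly6c2 shared 1 cell, 10% of the Prg2 cells and 5.26% of the 19 Ly6c2 cells. Slpi and Ly6c2 shared 5 cells, 20.8% of the Slpi cells and 26.3% of the Ly6c2 cells, and Il10 and Prg2 shared 2 cells, 66.7% of the 3 Il10 cells and 20% of the Prg2 cells. These counts are too small to tell an overlap from the share of each gene among the 94 cells.

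Marker lists of other cells were compared with B cells and erythroid barcodes of the same library. Of 5 T cell genes 4 were measured: the 3 Cd3 genes were at 0 by the rule, and the fourth, Lck, had 3 UMIs. The summed macrophage list stood at 314 CPM in plasma cells, with at most 3 UMIs per cell, against 387 in B cells and 540 in erythroid barcodes, and this list includes the C1q genes of the rule. The neutrophil list stood at 607 in plasma cells and 887 in B cells, the fibroblast list at 694 and 867, and the endothelial list at 83.0 and 80.9. The monocyte list, which holds Ly6c2, stood at 1042 in plasma cells, 985 in B cells and 117 in erythroid barcodes. The NK cell list stood at 22.1 in plasma cells and 34.7 in B cells, the dendritic list at 29.5 and 9.63, the smooth muscle list at 66.4 and 86.6, the mesothelial list at 62.7 and 77.5, and the Schwann cell list at 1.84 and 2.89. The mast cell list, with 314 in plasma cells and 99.6 in B cells, rested on 1 plasma cell with 126 UMIs. Haemoglobin genes reached 2084 UMIs in 1 plasma cell. In all, 8 plasma cells had 200 or more haemoglobin UMIs or 10 or more Dcn UMIs. Without them 832 of 7502 genes were higher and 950 lower than in B cells. The part of other cells' RNA in the results was not tested.

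Genes for ligands known to keep plasma cells in place were read in the other adventitial cells. Cxcl12 stood at 33.2 CPM in plasma cells (19.7 to 52.5), at 910 (854 to 968) in endothelial cells and at 356 (340 to 373) in fibroblasts, against 38.7 in erythroid barcodes. Its level in plasma cells did not exceed that of the erythroid barcodes. Il6, a cytokine that supports plasma cells, stood at 31.4 in plasma cells, 260 (246 to 274) in fibroblasts and 156 (140 to 174) in macrophages, against 30.4 in erythroid barcodes. Tnfsf13b, which encodes BAFF, stood at 7.38 (2.01 to 18.9) in plasma cells and 30.6 (26.0 to 35.8) in fibroblasts. Tnfsf13, which encodes APRIL, had 1 UMI in the adventitial library, while its neighbour Tnfsf12 had 1056, and how the counting treated this pair is not given in the sources used here. Vcam1, the partner of the integrin Itga4, stood at 12.9 in plasma cells, 99.9 in macrophages, 71.1 in endothelial cells and 55.0 in fibroblasts. The B cell chemokine Cxcl13 stood at 81.2 in plasma cells, 779 in macrophages and 578 in fibroblasts. Ccl28 had 0 UMIs in every gated class.

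**Figure D5:**
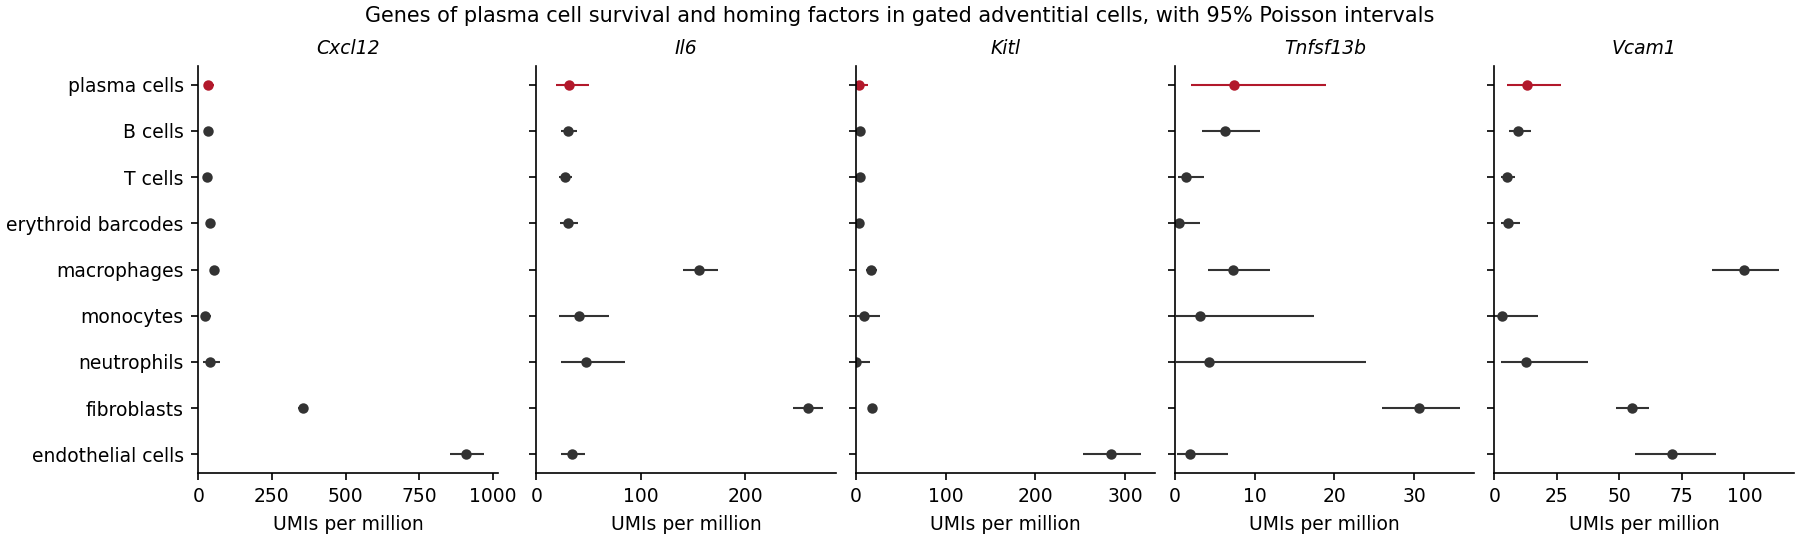
CPM (horizontal axes, 1 scale per gene) of 5 genes for survival and homing factors in 9 groups of adventitial cells, plasma cells at the top; bars are exact Poisson 95% intervals. Cxcl12 is highest in endothelial cells at 910 CPM, Il6 and Tnfsf13b in fibroblasts at 260 and 30.6, and plasma cells lie at the level of erythroid barcodes for Cxcl12 and Il6.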

How the data were processed

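Libraries were made with the 10x Chromium 3′ kit v2, per the labels, and processed with Cell Ranger 2.1.2 on mm10, per the submitters' processing notes; the annotation release is not given in the sources used here. The authors deposited UMI counts per gene and barcode for 27998 genes, of which 27645 had a symbol in the reference table of gene names; GENCODE M21 (GRCm38) gave coordinates. Intervals are exact Clopper-Pearson for shares and exact Poisson for levels, at 95%, and cover counting error only. Levels are CPM, and a count of 0 was set to 3 counts over the group for folds. Planned results on immunoglobulin genes were not analysed here. Named genes are members of 18 lists and the 15 largest folds in each direction at 100 or more CPM. Members and lists were chosen with earlier results of these data known. Scrublet in scanpy 1.11.5 marked 2 barcodes (0.0235%) by its automatic threshold, which did not work; doublets were kept, and removal of the 646 highest scores was an alternative, which took 6 plasma cells. Thinned values are exact expectations over draws of 1000 UMIs per cell, computed in place of a single draw, whose result depended on the seed. The fold calculation was checked on simulated data. Python 3.11.15, numpy 2.4.6 and scipy 1.17.1 were used. Values of some list members are not reported here.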

Additional observations from a re-analysis of the deposited data

How the results depend on the processing

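Results were recomputed with 1 choice changed at a time, except that the limits on Jchain and Mzb1 were moved together. In 2 settings the gate of the B cells changed as well. With Jchain 3 and Mzb1 1 the B cells held under 3 Jchain UMIs, and without exclusion they had no limit on Cd3 and C1q. Folds in these settings thus differ in both groups. Chosen after seeing the data were 200 UMIs, no exclusion, the Jchain subsets, the barcodes rich in haemoglobin or Dcn and the other splits. The 117 cells became 83 at 5% mitochondrial UMIs, 90 (1.06%) with Jchain 10 and Mzb1 5, 257 (3.02%) with Jchain 3 and Mzb1 1, and 303 (3.57%) without exclusion by Cd3 and C1q. The 831 higher genes of 7555 became 2996 of 7555 per cell without scaling and 1727 of 10951 at 5 UMIs. They became 146 of 1578 at 200 UMIs and 387 of 4329 with thinning. The 935 lower genes of 7555 became 374 of 8127 with Jchain 3 and Mzb1 1, and 269 of 7555 per cell without scaling. They became 144 of 1578 at 200 UMIs and 533 of 4329 with thinning. The share with 2 proliferation UMIs (41.0%) became 54.1% without exclusion, 14.9% with thinning and 20.5% at 4 UMIs. The share with 50 or more Jchain UMIs (80.3%) became 88.9% with Jchain 10 and Mzb1 5, and 37.4% with Jchain 3 and Mzb1 1. By Jchain range, the 388 higher genes became 255 when split at 100. The 323 lower became 1001 with Jchain 3 and Mzb1 1 and 744 without exclusion. The numbers of genes counted for these changes by Jchain range are not reported here. The cause was not tested, except that fewer or more barcodes or genes enter by construction. None of the 30 named genes changed direction in the 14 alternatives run on them. Of these alternatives, the limits of 5 and 200 UMIs and a repeat of the CPM scaling could not change the fold of a gene. The 30 genes were also picked as the largest folds of these data. Of the 30, 25 left their interval with Jchain 3 and Mzb1 1, and 24 in cells with 5 to 49 Jchain UMIs. Without scaling 18 left it, and 11 in cells with 50 or more Jchain UMIs. The median of the proliferation list ran from 0.14 with thinning to 3.50 in cells with 5 to 49 Jchain UMIs. It was 0.97 with 50 or more Jchain UMIs only. Each of these medians covers the genes of the list that passed the UMI limit in that setting. Heavy chain class, lambda share, immunoglobulin share and V gene use were not run. No paired analysis was possible because the adventitia is 1 library. Depth of 117 cells limits genes under 20 UMIs.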

Other observations

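Cytokine and checkpoint genes were mixed in plasma cells. Of 14 genes of cytokines and immune regulation, 4 were at least 2-fold higher than in B cells and 4 lower, with a median log2 fold of 0.18. Besides Il10, the higher genes were Lag3, an inhibitory receptor, with 27 UMIs in 19 plasma cells (49.8 CPM, against 6.26 in B cells), Ctla4, an inhibitor of costimulation, with 116 CPM against 36.1, and Tnf, with 8 UMIs against 14 in the larger group of B cells. Ltb, which builds lymphoid tissue, was lower, at 62.7 CPM in plasma cells and 363 in B cells, as were Nr4a1, a gene of recent receptor signalling, at 116 against 347, and Tgfb1, at 90.4 against 210. Ebi3 had 3 UMIs against 28 in the larger group of B cells.

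Genes associated with innate-like B cells were mostly lower or within 2-fold: of 13, 6 were lower and 2 higher, with a median of -0.77. The lower ones included Siglecg at -1.99, Plscr1 at -1.97 and Fcrl5 at -2.73, and the higher ones were Ctla4 and Spn (CD43), at 1.09. Per cell without scaling the median of this list was 0.03. Interferon response genes had a median of -0.06, with 2 of 10 higher (Isg20 at 2.76 and Bst2 at 1.44) and 2 lower. Isg20 stood at 136 CPM in plasma cells and 20.2 in B cells, but at 167 in erythroid barcodes. Early response genes, which dissociation can induce, had a median of 0.38: Jun and Nfkbia were higher, at 1.56 and 1.10, and Junb lower, at -1.02, with the other 13 within 2-fold. The niche ligand list within plasma cells had a median of 0.24, with 1 of 12 higher and 2 lower.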
